A study of Arabidopsis thaliana with 8 samples.

Results

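ExTQ019 is 1 of 8 diploid Arabidopsis thaliana strains derived from Ex-TAQing, a method that rearranges a plant genome from within. Its RNA, taken from leaves per the labels, is described here against that of the other 7 strains. The genes described are the loci that lie outside 3 chromosome stretches in which ExTQ019 as a whole was lower, AT2G46160 to AT2G48160, AT3G11680 to AT3G20830 and AT5G49690 to AT5G67640, by the order of locus names. These were 22643 of the 25665 loci on the array, and 19641 of them could be compared, out of 22381 in all. The strain and the stretches were picked from the same values, so every count and difference between ExTQ019 and the others below is a description, with no p-value.

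The parent plants carried the gene for the restriction enzyme MseI and were heated for 3 h at 33 °C to switch the enzyme on, per the labels' protocols. The 8 strains are progeny of such plants, grown for 4 weeks on agar medium with sucrose in days of 16 h light, and the labels give leaves as the tissue. ExTQ019 is set against ExTQ002, ExTQ013, ExTQ015, ExTQ003, ExTQ005, ExTQ016 and ExTQ018, which had the same treatment and age, and no untreated strain was used here. Each strain had 1 array, and the sources used here do not say whether a sample was 1 plant or several. Strain numbers are those of the sample titles, since the description texts differ from them, and the descriptions of the ExTQ018 and ExTQ019 samples both name ExTQ007. The molecule field of all 8 samples reads genomic DNA, while the labels' protocol describes Cy3 labelling of total RNA, and the levels are read here as RNA. In RNA from whole tissue, fewer cells of a type and less RNA per cell cannot be told apart.

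A change in gene dosage alters first the genes in the affected chromosome part, and genes elsewhere can follow through the pathways those genes feed into, while the state of the plant at harvest acts on genes anywhere in the genome. Leaves carry several such pathways whose genes move together. Salicylic acid drives defence against microbes that feed on living cells, heat shock factors switch on chaperones when proteins unfold, a separate sensor does so for the endoplasmic reticulum, and phosphate, nitrate and sugar each control sets of transport and salvage genes.

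The 8 arrays each held 37478 probes, of which between 61.3% and 67.7% were well above background, with ExTQ019 at 65.3%. ExTQ002, ExTQ013, ExTQ015 and ExTQ003 shared the first slide, and ExTQ005, ExTQ016, ExTQ018 and ExTQ019 the second. All 33 tested photosynthesis genes used as leaf markers were above background in ExTQ019, with a summed level of 2158 against 1971 to 2823 in the others (linear scale). None of the 7 tested seed markers was above background in ExTQ019, while ExTQ016 had all 7, with a summed level of 97.3 against at most 0.366 elsewhere. All 9 tested flower markers were above background in ExTQ019, at a summed level of 8.89, inside the range of 0.705 in ExTQ002 to 22.4 in ExTQ018. The flower markers, and the seed markers in ExTQ016, are at odds with the label of leaves. Whether flower or seed tissue was in the samples was not tested. Of the 4 tested root markers 1 was above background in ExTQ019, and both tested guard cell markers were, at summed levels of 0.0167 and 1.38 against at least 0.024 and 1.45 in the others.

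A level is a log2 intensity minus the 75th percentile of its array, and a gene at that percentile has the level 0. A difference is ExTQ019 minus the mean of the 7 others on that scale, given as ± SE from limma, and a gene is called higher or lower at an adjusted p under 0.05 with a difference of at least 1 in size. The SE comes from the spread of the 7 others, so the single array of ExTQ019 is assumed to vary as they do, and with so few arrays the precision is limited. Outside the stretches 953 genes, or 4.85%, were called higher and 635, or 3.23%, were called lower, which makes 8.09% in either direction. Of the 953, 83 were above background in no other strain, and were tested only because ExTQ019 was. ExTQ019 lay above all 7 others in 6017 genes, or 30.6%, and below all of them in 4756, or 24.2%. Inside the stretches, by comparison, 776 of 2740 genes, or 28.3%, were called lower and 32, or 1.17%, higher.

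**Figure D1:**
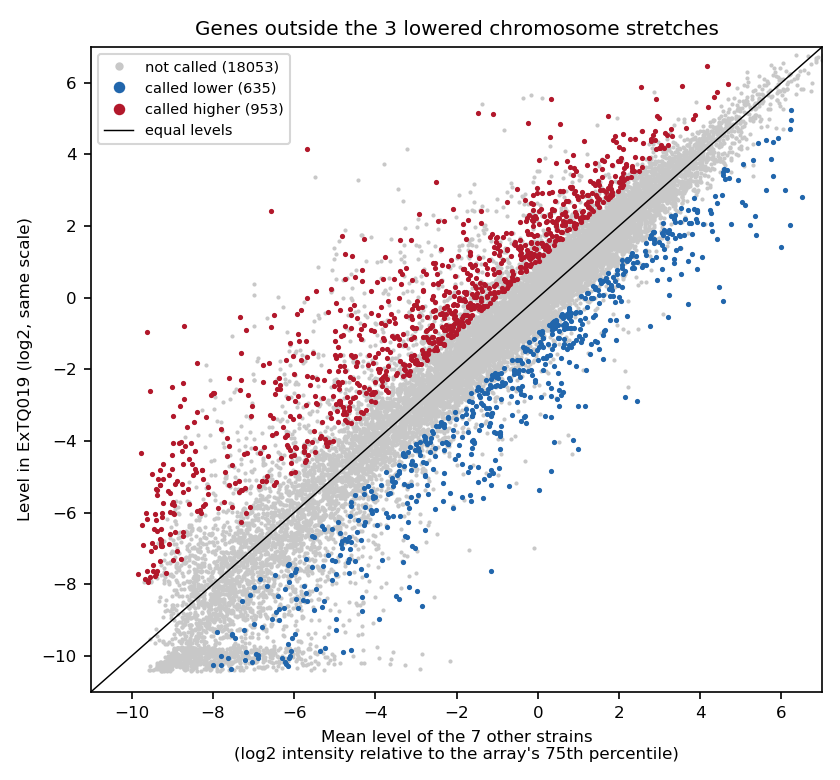
Level of each of the 19641 genes in ExTQ019 (vertical) against the mean of the 7 other strains (horizontal), both as log2 intensity relative to the array's 75th percentile. Points are genes, red for the 953 called higher, blue for the 635 called lower and grey for the rest, and the line marks equal levels.

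The genes called higher had a median difference of 1.89, and 442 of them differed by at least 2 and 104 by at least 4 on the log2 scale. Those called lower had a median of −1.74, with 258 at a size of at least 2 and 34 at a size of at least 4. Both sets were spread over the chromosomes. The share called higher ran from 4.43% of tested genes on chromosome 4 to 5.12% on chromosome 2, and the share called lower from 3.10% on chromosome 3 to 3.44% on chromosome 5. The median over all tested genes outside the stretches was 0.03. The split between directions depended on the scaling. Of all calls 60.0% were higher, and this share was 47.8% when the 75th percentile was taken over loci outside the stretches, which moved the median of all tested genes from −0.05 to −0.19. Background correction by normexp ended the calls of 67 of the 139 called genes looked at one by one, and leaving out 1 of the 7 strains ended those of 39. Some of the 67 lost the call at a smaller difference, such as ALD1, at 2.86 against 5.77 as reported. Others lost it at an unchanged or larger one, such as SOBIR1, at 3.46 against 3.35. Without ExTQ018, which shares its description with ExTQ019, 754 genes were called higher and 536 lower.

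At the borders of the stretches the tested genes just outside did not follow those just inside. The ends were picked from these same values, so a change there follows from that choice and shows nothing by itself. Before the chromosome 2 stretch AT2G46150 differed by 3.30 and the first gene inside, AT2G46160, by −1.04. Before the chromosome 3 stretch DGD1 differed by 0.31 and AT3G11680 by −3.37, with an SD of 2.41 among the others for AT3G11680. At the far end of that stretch UCNL inside differed by −0.53 and AT3G20850 outside by 0.29. Before the chromosome 5 stretch AT5G49680 differed by 2.31 and AT5G49690 by −1.16. No tested gene lay beyond the far ends on chromosomes 2 and 5, where the last genes inside, AT2G48160 and AT5G67640, differed by −0.90 and −1.15.

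Gene lists were used to order the results. The 26 lists held 490 tested genes outside the stretches, of which 65, or 13.3%, were called higher and 23, or 4.69%, lower. In 217 of the 490 ExTQ019 lay above all 7 others and in 88 below all of them. The lists were drawn up with earlier results of these data known, so their counts support nothing by themselves. Every count of calls in a list is to be read beside the 4.85% higher and 3.23% lower of all genes. Counts above or below all 7 others stand beside 30.6% and 24.2% of all genes.

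**Figure D2:**
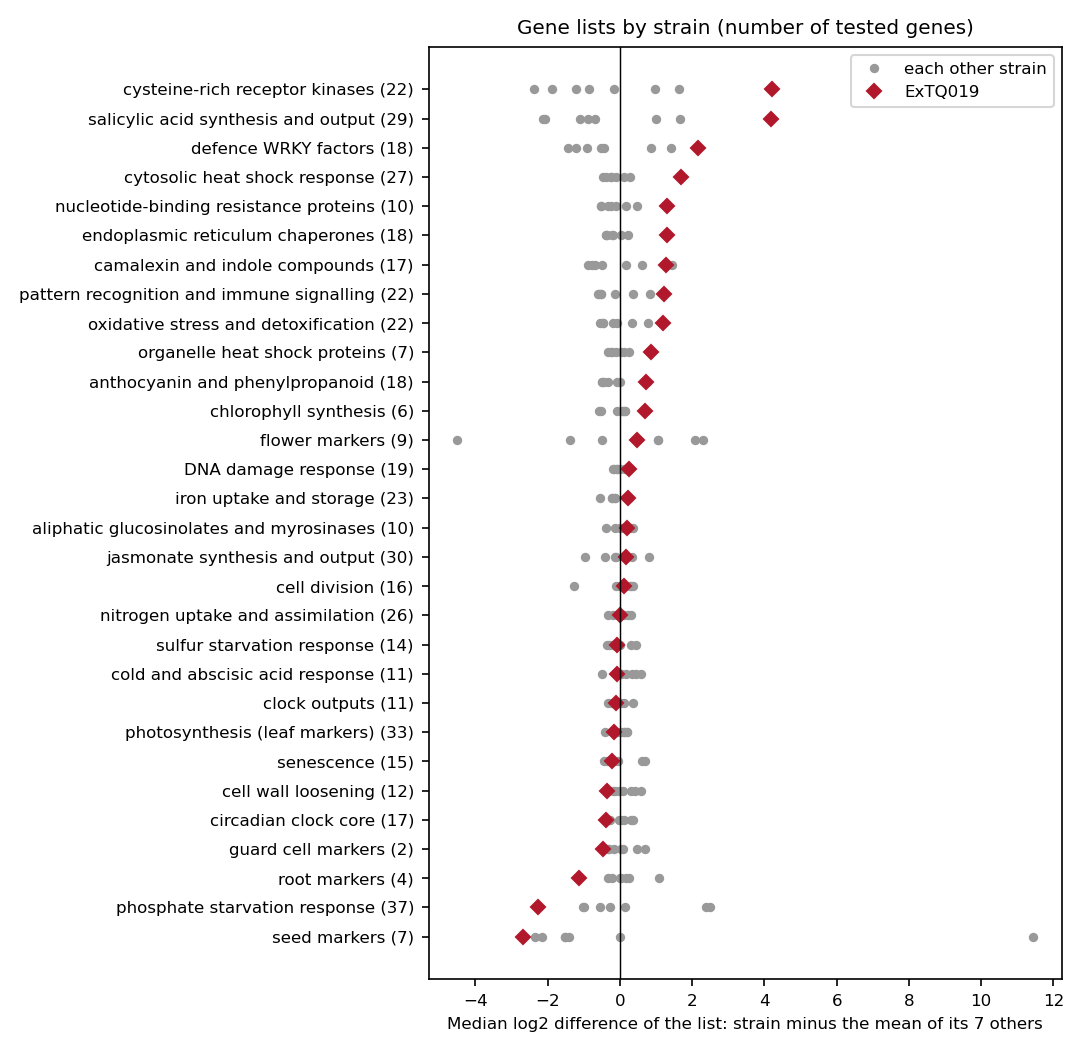
Median log2 difference of each gene list for every strain against the mean of its 7 others (horizontal), with the number of tested genes in brackets. Red diamonds are ExTQ019 and grey points the 7 other strains; ExTQ019 stands to the right of all others in the salicylic acid list, at 4.18, and to the left of all others in the phosphate list, at −2.27.

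Salicylic acid genes and cysteine-rich receptor kinase genes had the largest median differences of the 26 lists. Salicylic acid is made from chorismate by isochorismate synthase, its signal runs through the EDS1 complex and the NPR receptors, and its output includes the secreted PR proteins. Of the 29 tested genes of this list 10 were called higher and none lower, against 4.85% and 3.23% of all genes. ExTQ019 lay above all 7 others in all 29. The median difference was 4.18, and it was 4.76 against the 3 other strains of the same slide. Some called list members named here and below lie outside the naming rule and were chosen after their values were seen.

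At the head of this pathway stand the genes for synthesis and signalling. ICS1, the isochorismate synthase gene, was at 1.79 in ExTQ019 and ran from −1.95 through a median of −1.3 to −0.01 in the others, a difference of 2.93 ± 0.68. EDS1, which carries signals from immune receptors, was at 2.11 against −0.84, −0.49 and −0.05 (lowest, median and highest of the others), a difference of 2.55 ± 0.30. In both genes the highest of the others was ExTQ002 and the groups did not overlap. ALD1, whose enzyme makes the precursor of the mobile signal pipecolic acid, was at −1.54 against −8.81, −7.60 and −5.45, with 3 of the 7 others above background, and differed by 5.77 ± 1.18. The salicylic acid receptor genes were called with smaller differences, NPR1 at 1.19 ± 0.29 and NPR4 at 1.43 ± 0.20. NIMIN1, which encodes a protein that binds NPR1, was higher by 4.39 ± 0.80. DMR6, which encodes an enzyme that breaks salicylic acid down, was higher by 4.18 ± 1.11.

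The output genes had the largest spread among the other strains, and not all of them were called. PR5, which encodes a thaumatin-like defence protein, was at 5.12 in ExTQ019 and ran from −3.44 through −1.75 to 1.76, a difference of 6.23 ± 1.71. AT5G03350, listed here with no further name, was at 5.16 against −2.58, −2.03 and 0.92 and differed by 6.64 ± 1.24. NUDT6, a Nudix hydrolase gene, was at 1.64 against −5.59, −4.57 and −2.53 and differed by 5.93 ± 1.19. ExTQ019 lay above all others in each of the 3. PR1, the classical marker of the salicylic acid response, was at 3.29 against −9.23, −4.19 and −1.0, and BGL2, a glucanase gene, was at 5.58 against −4.09, −0.49 and 3.62. Their differences of 7.72 ± 2.82 and 5.96 ± 2.72 were not called. ExTQ002 was the highest of the other strains in 27 of the 29 genes of the list. The share of all tested genes with ExTQ002 or ExTQ013 highest was not taken, here or for the lists below.

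The calls of PR5, DMR6 and NPR1 were lost when single strains were left out. PR5 lost it without any of ExTQ013, ExTQ015, ExTQ003, ExTQ005, ExTQ016 or ExTQ018, at differences of 5.84 to 6.51. DMR6 lost it without ExTQ015, ExTQ003, ExTQ005 or ExTQ018, at 3.95 to 4.23, NPR1 without ExTQ015, ExTQ005 or ExTQ018, at 1.17 to 1.2, and ICS1 without ExTQ018, at 2.90. With normexp background correction ALD1 and DMR6 differed by 2.86 and 4.1 and were not called.

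**Figure D3:**
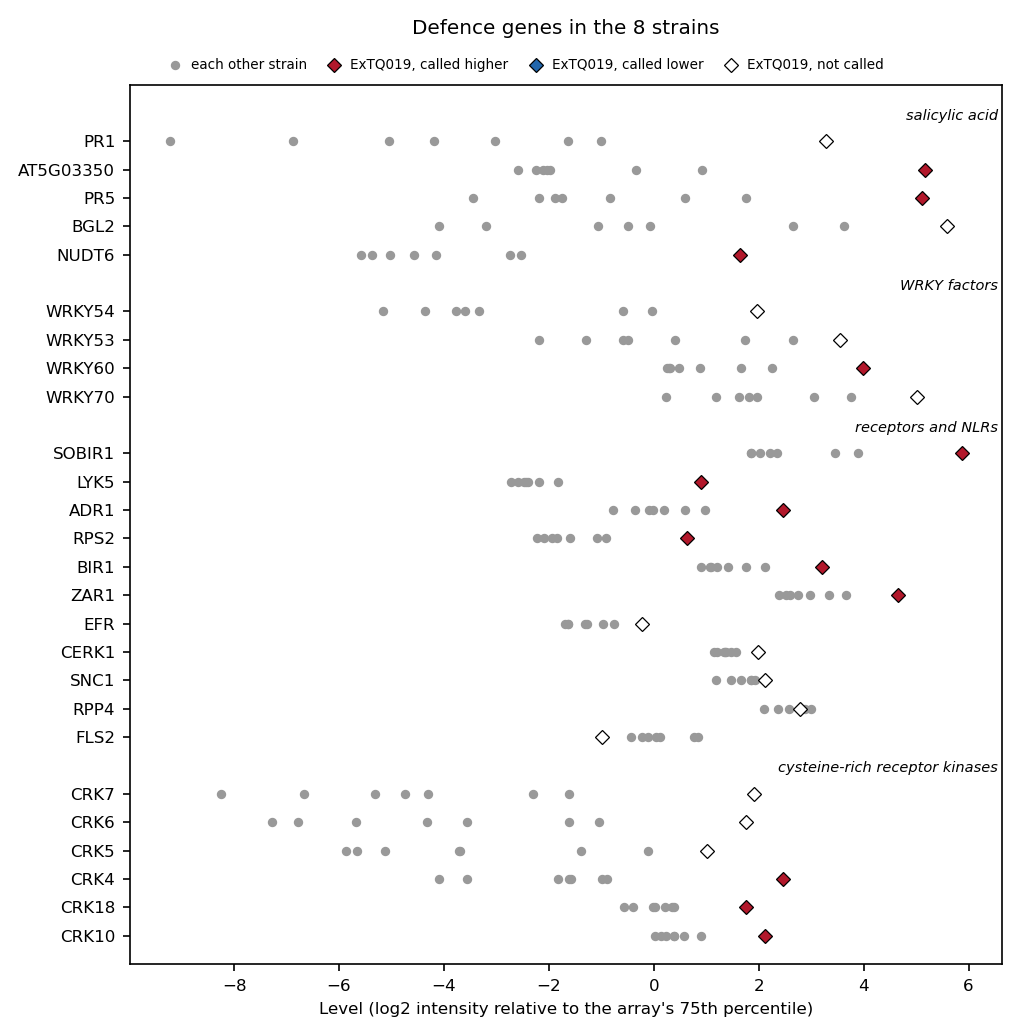
Level (log2 intensity relative to the array's 75th percentile, horizontal) of the named defence genes in each of the 7 other strains (grey points) and in ExTQ019 (diamonds, red where called higher and white where not called). PR1 in ExTQ019 is at 3.29, to the right of all other strains, and FLS2 at −0.98 is to the left of all of them.

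Receptors at the cell surface and inside the cell start these defence responses. Of 22 tested genes for pattern recognition and immune signalling 3 were called higher and none lower, against 4.85% and 3.23% of all genes. The median difference was 1.23 (1.53 within the slide). LYK5, which encodes the main chitin receptor, was at 0.90 in ExTQ019 against −2.72, −2.43 and −1.83, a difference of 3.27 ± 0.30, and no other strain was within 2 log2 units of it. SOBIR1, a kinase gene whose product pairs with receptor-like proteins, was at 5.88 against 1.86, 2.22 and 3.90 and differed by 3.35 ± 0.80. BIR1, which encodes a kinase that holds immune signalling back, was higher by 1.85 ± 0.43. The flagellin receptor gene FLS2 ran the other way, at −0.98 against −0.43, 0.05 and 0.85, with a difference of −1.12 ± 0.48 that was not called. The chitin co-receptor gene CERK1 and the EF-Tu receptor gene EFR lay above all others, at differences of 0.63 ± 0.17 and 1.1 ± 0.37, and were not called. The call of SOBIR1 was lost without ExTQ015, ExTQ005 or ExTQ018, at 3.27 to 3.32, that of BIR1 without ExTQ015 or ExTQ018, at 1.82 and 1.86, and both with normexp, at 3.46 and 1.9.

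Nucleotide-binding resistance proteins detect microbial effectors inside the cell. Of their 10 tested genes 6 were called higher and none lower, against 4.85% and 3.23% of all genes, with a median difference of 1.31. RPS2, which guards against a Pseudomonas effector, was at 0.63 in ExTQ019 against −2.23, −1.85 and −0.91 and differed by 2.31 ± 0.50. ADR1, a helper gene that acts for several such receptors, was at 2.47 against −0.77, −0.01 and 0.98 and differed by 2.39 ± 0.58. ZAR1, whose product assembles into a channel called a resistosome, was higher by 1.77 ± 0.46, and RPM1, ADR1-L1 and RPS4 were higher by 1.48 ± 0.25, 1.44 ± 0.36 and 1.17 ± 0.25. SNC1 and RPP4, which lie side by side in a cluster of like genes, were inside the range of the others, with differences of 0.38 ± 0.32 and 0.14 ± 0.33. The call of ADR1 was lost without ExTQ015, ExTQ005 or ExTQ018, at 2.32 to 2.41. Those of ZAR1 and ADR1-L1 were lost without ExTQ015, ExTQ003, ExTQ005, ExTQ016 or ExTQ018, at 1.69 to 1.79 and 1.39 to 1.43. With normexp 5 of the 6 calls were lost, RPS2 at 1.96, ZAR1 at 1.78, ADR1-L1 at 1.52 and RPM1 and RPS4 at 1.04.

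Cysteine-rich receptor kinases respond to salicylic acid and to oxidative signals in the space outside the cell. Of 22 tested genes of this list 4 were called higher and none lower, against 4.85% and 3.23% of all genes. The median difference was 4.2 (4.83 within the slide and 2.63 with normexp), and ExTQ019 lay above all others in 20. The largest called difference was that of CRK4, at 2.47 in ExTQ019 against −4.10, −1.61 and −0.89, or 4.55 ± 1.21. CRK18 and CRK10 differed less but from a tighter group, by 1.76 ± 0.36 and 1.75 ± 0.30. CRK7, CRK6 and CRK5 lay above all others at 1.90, 1.76 and 1.02, and their differences of 6.64 ± 2.24, 6.09 ± 2.35 and 4.67 ± 2.12 were not called. These neighbouring genes are alike in sequence, so that signal may be shared between probes. The call of CRK4 was lost without ExTQ015, ExTQ003, ExTQ005 or ExTQ018, at 4.31 to 4.64, within its own slide, at 4.99, and with quantile normalization, at 4.53. CRK18 lost its call with normexp, at 1.73. The remaining called gene, CRK17, differed by 1.54, and its call held in only 6 of 18 alternatives. It was lost with normexp, at 0.36, and with the deposited values, at 0.75.

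WRKY transcription factors control much of the defence response. Of 18 tested defence WRKY genes 1 was called higher, against 4.85% of all genes, so the calls alone do not set this list apart. The median difference was 2.16 (2.96 within the slide), and ExTQ019 lay above all others in 13. The called gene was WRKY60, at 3.98 against 0.25, 0.48 and 2.26 and higher by 3.10 ± 0.77, and its call was lost without ExTQ015, ExTQ003, ExTQ005, ExTQ016 or ExTQ018, at 3.0 to 3.1, and with normexp, at 3.06. WRKY70, which links salicylic acid with jasmonate, was at 5.02 against 0.24, 1.82 and 3.75 and differed by 3.07 ± 1.13. WRKY54 and WRKY53 differed by 4.94 ± 1.86 and 3.51 ± 1.64. None of these last 3 was called. ExTQ002 was the highest of the others in 16 of the 18.

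The jasmonate, camalexin and glucosinolate lists gave 1 call in all. None of 30 tested jasmonate genes was called in either direction. ExTQ019 lay above all others in 6 and below all in 9, against 30.6% and 24.2% of all genes. The median difference of 0.18 was −0.02 with normexp and −0.37 within the slide. LOX2, which starts jasmonate synthesis in the chloroplast, was at 6.03 against 4.33, 5.31 and 5.95. None of 17 tested genes for camalexin and indole compounds was called, although the median difference was 1.27. PAD3, which makes the last step to the antimicrobial camalexin, was at 2.32 in ExTQ019, within the −3.30 to 2.56 of the others. Of 10 tested genes for aliphatic glucosinolates and their breakdown 1 was called, lower. This was MAM3, whose enzyme lengthens the side chains of these compounds, at −7.62 in ExTQ019 against −2.90, −1.47 and 1.32. It fell by 6.47 ± 1.53, the largest decrease among genes above background on all 8 arrays, and its call was lost without ExTQ015 or ExTQ005, at −6.52 and −6.58, with normexp, at −4.11, and with the deposited series values, at −3.48.

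Chaperones of the cytosol gave calls mainly in the higher direction. Heat shock factors are held inactive until unfolded proteins draw chaperones away, and HSFA2 then sustains the response. Of 27 tested genes of the cytosolic heat shock response 11 were called higher and 1 lower, against 4.85% and 3.23% of all genes. The median difference was 1.68 (1.78 within the slide), and ExTQ019 lay above all others in 21. HSFA2 was at 0.49 in ExTQ019 against −3.78, −3.41 and −2.06 and differed by 3.60 ± 0.68. HSP101, a disaggregase gene needed for heat tolerance, was at −0.28 against −1.93, −1.5 and −1.29 and differed by 1.31 ± 0.27. AT2G29500 and AT1G07400, placed in this list by locus, differed by 3.82 ± 0.62 and 3.41 ± 0.39.

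Regulators of this response were called too. DREB2A, a transcription factor gene of drought and heat responses, was at 2.70 in ExTQ019 against 0.25, 0.35 and 0.72 and differed by 2.26 ± 0.21. MBF1C, a coactivator gene of heat tolerance, was at 3.97 against 1.43, 1.55 and 2.24 and differed by 2.27 ± 0.30. ExTQ019 lay above all others in both. Of the co-chaperone genes HOP3 differed by 1.68 ± 0.25, ROF2 by 2.23 ± 0.38 and FES1A by 1.12 ± 0.20. Hsp70-2 differed by 3.11 ± 0.79, and its call was lost without ExTQ015, ExTQ003 or ExTQ018, at 3.02 to 3.07, and within the slide, at 3.27. The master regulator gene HSFA1A was hardly above the others, at −1.8 against a highest of −1.87. HSA32, which prolongs acquired heat tolerance, was the gene called lower, at −2.78 against −1.75, −1.42 and −1.18, a difference of −1.36 ± 0.21. With normexp HSP101, Hsp70-2 and HSA32 lost their calls, at 1.16, 3.08 and −1.3, and FES1A lost its call with scaling over loci outside the stretches, at 0.98.

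Heat shock proteins of chloroplasts and mitochondria gave 1 called gene, higher, of 7 tested, with a median difference of 0.85. This was AT1G52560, at −2.62 against −4.40, −4.15 and −3.65, with a difference of 1.43 ± 0.29. Its call was lost with normexp, at 0.86, and within the slide, at 1.3. HSP21, which protects the chloroplast's transcription machinery, was at −5.22 and inside the −9.39 to −4.42 of the others. HSP23.6-MITO was at −1.60 against a highest of −3.41, and its difference of 3.68 ± 1.12 was not called.

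Chaperones of the endoplasmic reticulum fold secreted proteins and are switched on when folding there falls behind demand. This list had the highest share of calls, with 14 of 18 tested genes higher and none lower, against 4.85% of all genes. The median difference was 1.29 (1.41 within the slide), and ExTQ019 lay above all others in 17. CRT3, a calreticulin gene that plant immune receptors depend on, was at 6.46 in ExTQ019 against 3.80, 4.05 and 4.69 and differed by 2.29 ± 0.31. SHD, the gene for the reticulum's own HSP90, was at 5.75 against 4.31, 4.42 and 4.51 and differed by 1.34 ± 0.12. PDIL1-2, a protein disulfide isomerase gene, was at 2.97 against −0.04, 0.43 and 1.21 and differed by 2.43 ± 0.48. ExTQ019 lay more than 1 log2 unit above the highest other strain in all 3 genes.

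The J-domain co-chaperone gene ERDJ3A had the largest called difference of this list, at −0.64 in ExTQ019 against −4.34, −3.93 and −2.60, or 3.04 ± 0.67. Its relative ERDJ3B differed by 1.8 ± 0.19 and SDF2, whose product works with it, by 1.18 ± 0.15. The calreticulin genes CRT1 and CRT1b differed by 1.16 ± 0.18 and 1.24 ± 0.17, and PDIL1-1 by 1.5 ± 0.28. BIP2 and BIP1 encode the main HSP70 of the reticulum in nearly the same sequence, so their probes may share signal, and they differed by 1.78 ± 0.31 and 1.23 ± 0.32. BIP3, the copy that is most inducible, was at 1.08 against −4.62, −4.04 and −1.40, and its difference of 4.46 ± 1.26 was not called. The call of BIP1 was lost without ExTQ015, ExTQ003, ExTQ005, ExTQ016 or ExTQ018, at 1.17 to 1.23, and with scaling over loci outside the stretches, at 1.09. With normexp BIP1 and ERDJ3A lost their calls, at 1.23 and 2.34.

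**Figure D4:**
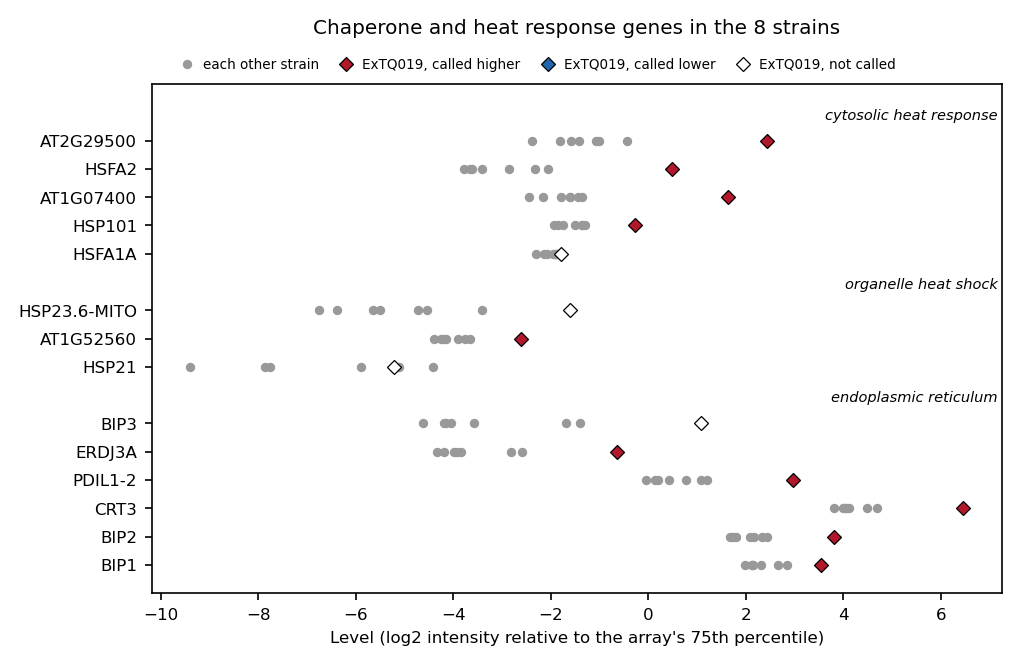
Level (log2 intensity relative to the array's 75th percentile, horizontal) of the named heat shock and endoplasmic reticulum chaperone genes in each of the 7 other strains (grey points) and in ExTQ019 (diamonds, red where called higher and white where not called). CRT3 in ExTQ019 is at 6.46 against at most 4.69 in the others, while HSP21 at −5.22 lies among them.

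Phosphate starvation genes gave few calls and a negative median difference. Plants short of phosphate raise transporters, phosphatases and enzymes that recover phosphate from lipids, while PHO2 marks transporters for breakdown and is itself silenced by a microRNA in starved plants. Of 37 tested genes 2 were called lower and 1 higher, against 3.23% and 4.85% of all genes. ExTQ019 lay below all others in 18 and above all in 2, and the median difference was −2.27. ExTQ002 or ExTQ013, both on the first slide, was the highest of the others in 33 of the 37 genes, and against the 3 other strains of its own slide the median difference of ExTQ019 was −0.53.

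The lipid salvage gene SRG3, which encodes the glycerophosphodiester phosphodiesterase GDPD1, was at 0.29 in ExTQ019 against 3.68, 4.18 and 5.70. It fell by 4.18 ± 0.87. Its relatives GDPD2 and GDPD3 are not in the list and were among the largest decreases, and their link to phosphate was not tested. GDPD2 did not follow SRG3 among the other strains. In ExTQ002 and ExTQ005 GDPD2 was at 0.38 and 2.06, and SRG3 at 5.70 and 3.68. GDPD2 was at −4.22 against 0.07, 0.90 and 2.06, a difference of −5.20 ± 0.71, and GDPD3 did not reach above background in ExTQ019, which put it at least 24.6-fold lower there; its difference was −1.65 with the deposited values and −2.41 with normexp, not called in either. PHO1;H1, a phosphate exporter gene, was at −2.69 against −0.95, −0.66 and 0.37 and fell by 2.27 ± 0.55. PHO2 itself was called higher, at 3.85 against 0.92, 1.81 and 2.1, a difference of 2.26 ± 0.42.

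SPX1 and SPX2, sensors of phosphate state, were at −0.46 and 0.94 in ExTQ019, below all 7 others, whose lowest values were 1.90 and 1.37. SPX3 was at −7.05 against −5.82, −1.2 and 2.61. Their differences of −3.54 ± 1.27, −0.85 ± 0.52 and −5.34 ± 3.47 were not called. The call of PHO1;H1 was lost without ExTQ015 or ExTQ016, at −2.31 and −2.26, and with slide as a block, at −1.98. That of SRG3 was lost with normexp, at −4.12.

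Nitrogen genes were called in both directions. Of 26 tested genes 2 were called higher and 6 lower, against 4.85% and 3.23% of all genes. The median difference of 0.01 was −0.17 with normexp and −0.13 with scaling over loci outside the stretches. The nitrate reductase genes NIA1 and NIA2 make the first step of nitrate assimilation. NIA1 was at 2.05 in ExTQ019 against 4.16, 4.65 and 5.37 and fell by 2.71 ± 0.45, and NIA2 was at 4.47 against 5.62, 5.96 and 6.09 and fell by 1.44 ± 0.19. HRS1, a repressor gene induced by nitrate, was at −3.96 against −0.19, 1.16 and 2.02 and fell by 4.82 ± 0.85. LBD38, another nitrate-induced regulator gene, fell by 2.08 ± 0.42, and lost its call within the slide, at −1.85. ExTQ019 lay below all other strains in each of these 4 genes.

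The 2 nitrogen genes called higher both encode transporters. NRT2.5, a high-affinity nitrate transporter gene of nitrogen-starved plants, was at −2.65 in ExTQ019 against −9.15, −8.15 and −6.89, with 1 of the 7 others above background, and differed by 5.32 ± 0.97. With normexp its difference was 1.79 and was not called. The ammonium transporter gene AMT1;1 was at 4.16 against 1.77, 2.13 and 2.5 and differed by 2.05 ± 0.24. NRT1.1, the dual-affinity nitrate transporter and sensor, was at 0.50, inside the range of −0.12 to 2.21.

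The other 2 nitrogen genes called lower were ASN1 and GDH2. ASN1, an asparagine synthetase gene of dark-treated leaves, was at 3.00 in ExTQ019 against 5.25, 5.54 and 6.07 and fell by 2.61 ± 0.32. GDH2, which feeds carbon from amino acids into respiration, was at 2.67 against 4.82, 5.07 and 5.26 and fell by 2.35 ± 0.20. ExTQ019 lay more than 2 log2 units below the lowest other strain in both.

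Of the 15 tested senescence genes 1 was called, lower. This was SEN1, an early marker of darkened and ageing leaves, at 2.03 in ExTQ019 and between 6.09 and 6.34, with a median of 6.19, in the others. It fell by 4.17 ± 0.14, and the 7 other strains lay within a narrow range. The senescence protease gene SAG12 was at −1.19, inside the range of −6.14 to 0.95.

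Iron and sulfur lists gave few calls. FRU, also known as FIT1, the main regulator of iron uptake in roots, was at −3.06 against −5.63, −4.74 and −4.22 and was higher by 1.74 ± 0.45. NAS1, which makes the iron chelator nicotianamine, was at 3.66 against 0.08, 0.80 and 1.32 and was higher by 2.87 ± 0.48, and PYE, a repressor gene of the iron response, fell by 1.14 ± 0.25. FRO2 and IRT1, the reductase and transporter genes that FRU controls, were inside the range of the others, and PYE lost its call with normexp, at −1.14. Of 23 tested iron genes 2 were called higher and 1 lower, against 4.85% and 3.23% of all genes. The call of FRU was lost with normexp, at 0.75, and without ExTQ013, ExTQ015, ExTQ003, ExTQ005 or ExTQ018, at 1.7 to 1.79. Of 14 tested sulfur genes 1 was called, the sulfate transporter gene SULTR1;2, at 0.70 against −2.45, −1.5 and −0.89 and higher by 2.45 ± 0.57. The related SULTR1;1 was not above background in ExTQ019 and in 6 of the 7 others.

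Clock genes peak at fixed times of day, LHY and RVE8 around dawn and in the morning, LUX and ELF4 in the evening. Of 17 tested core clock genes 2 were called higher and 2 lower, against 4.85% and 3.23% of all genes. The median difference was −0.39 (−0.67 within the slide). LHY was at −2.48 in ExTQ019 against −4.62, −4.29 and −3.82 and differed by 1.8 ± 0.27. RVE8 was at −0.92 against −3.34, −2.79 and −2.35 and differed by 1.84 ± 0.39. LUX was at 0.91 against 2.38, 2.71 and 2.92 and fell by 1.77 ± 0.21, and ELF4 was at 0.07 against 1.23, 1.48 and 1.88 and fell by 1.43 ± 0.26. These 2 morning genes were above and these 2 evening genes below all other strains, but they are only the called genes. Over the 17 genes ExTQ019 lay above all others in 2, which are LHY and RVE8, and below all in 6. Among the genes below all was PRR7, at −0.61 ± 0.30 and not called. Of the 25 listed core clock genes 8 lay inside the stretches and were left out. With normexp 3 of these 4 calls were lost, LHY at 1.0, RVE8 at 1.43 and ELF4 at −1.34, and LUX remained called. GI, which peaks late in the day, was at 1.75 and inside the range of 1.72 to 2.08. Among 11 tested clock outputs GRP7, an RNA-binding protein gene with an evening peak, was at 3.58 against 4.43, 4.58 and 4.66 and fell by 1.0 ± 0.13, right at the threshold, and its call was lost without ExTQ002, ExTQ015 or ExTQ016, at −0.99, and with normexp, at −0.97. The sources used here give no time of harvest for the strains, and its part in these differences was not tested.

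Photosynthesis genes differed little. Of 33 tested genes 1 was called, lower, and the median difference of −0.16 was 0.09 with quantile normalization and 0.12 in the deposited series values. The called gene, RBCS2B, a small subunit gene of Rubisco, was at 4.34 against 5.19, 5.90 and 6.14 and fell by 1.44 ± 0.34. Its sister RBCS1A, nearly the same in sequence, differed by −0.37 ± 0.19. The call of RBCS2B was lost without ExTQ015, ExTQ003 or ExTQ018, at −1.43 to −1.41. None of 6 tested genes for chlorophyll synthesis was called. HEMA1 and GUN5, which encode early enzymes of that path, lay above all others, with differences of 0.77 ± 0.17 and 0.85 ± 0.22.

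Anthocyanin genes were called in both directions. These red pigments are made late in the flavonoid pathway under the control of PAP1. Of 18 tested genes 5 were called higher and 1 lower, against 4.85% and 3.23% of all genes. The median difference was 0.71 (0.48 within the slide), and ExTQ019 lay above all others in 9. DFR, the enzyme gene that commits to anthocyanin, was at 1.23 in ExTQ019 against −6.71, −5.33 and −1.79 and differed by 5.98 ± 1.57. GSTF12, needed to bring anthocyanin into the vacuole, was at 1.14 against −5.20, −3.92 and −2.06 and differed by 4.91 ± 1.26. AT4G14090, placed in this list by locus, differed by 3.96 ± 0.46, and AT5MAT, which modifies anthocyanins with malonate, by 3.79 ± 1.04. The gene called lower was MYBL2, a repressor of this pathway, at 2.78 against 3.31, 3.93 and 4.07, which fell by 1.07 ± 0.28. PAP1 lay above all others at 1.34 against a highest of −0.51, with a difference of 3.27 ± 1.0 that was not called, and TT4, the chalcone synthase gene, was inside the range.

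Most pigment calls were lost under alternatives, at nearly unchanged differences when strains were left out and at mostly smaller ones with normexp. DFR lost its call without ExTQ013, ExTQ015, ExTQ003, ExTQ005 or ExTQ018, at 5.66 to 6.15, and within the slide, at 5.84. GSTF12 lost it without ExTQ003, ExTQ005 or ExTQ018, at 4.68 to 4.89, and within the slide, at 4.84. AT5MAT lost it without any strain other than ExTQ015, at 3.62 to 3.85, and MYBL2 without ExTQ013, ExTQ015, ExTQ003, ExTQ005 or ExTQ018, at −1.1 to −1.04, and within the slide, at −0.89. With normexp DFR, GSTF12, AT4G14090, AT5MAT and MYBL2 were not called, at 4.78, 4.13, 2.76, 1.7 and −1.07. The other gene called higher, TT5, differed by 1.12. Its call was lost without ExTQ018, at 1.11, with normexp, at 0.88, with the deposited values, at 0.97, and with scaling over loci outside the stretches, at 0.98.

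Cell wall loosening enzymes let cells expand. Of 12 tested genes 4 were called lower and 1 higher, against 3.23% and 4.85% of all genes. The median difference was −0.37 (−0.92 within the slide and −0.14 over probes above background on all 8 arrays). XTR7, an endotransglucosylase gene also called XTH15, was at −2.89 in ExTQ019 against 1.46, 2.47 and 3.58 and fell by 5.34 ± 0.86. XTH4 was at 2.02 against 4.68, 5.24 and 5.51 and fell by 3.21 ± 0.29. The expansin gene EXPA11 was at −1.71 against 1.25, 1.62 and 1.78 and fell by 3.33 ± 0.20. XTH17 did not reach above background in ExTQ019, which put it at least 4.45-fold lower there, and it lost its call with the deposited values, at −0.42, and with normexp, at −1.1. Another expansin gene, EXPA1, was called higher, at 3.90 against 2.23, 2.71 and 3.04, with a difference of 1.32 ± 0.32, and its call was lost without ExTQ015, ExTQ005 or ExTQ018, at 1.35, and with normexp, at 1.43.

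**Figure D5:**
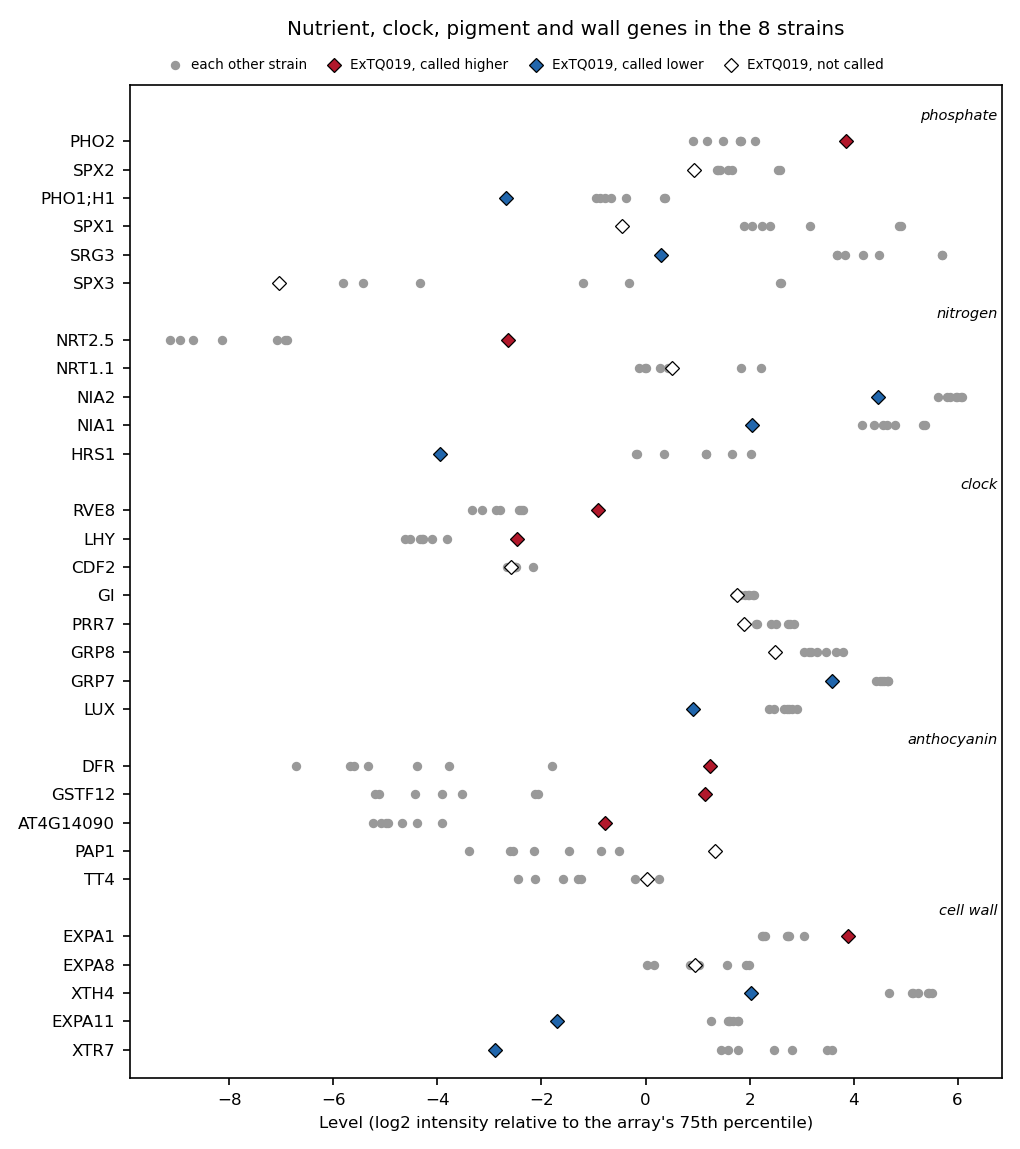
Level (log2 intensity relative to the array's 75th percentile, horizontal) of the named phosphate, nitrogen, clock, anthocyanin and cell wall genes in each of the 7 other strains (grey points) and in ExTQ019 (diamonds, red where called higher, blue where called lower and white where not called). PHO2 and the anthocyanin genes DFR and GSTF12 lie to the right of all other strains, and HRS1 at −3.96 and XTR7 at −2.89 to the left of all of them.

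Genes of DNA damage, cell division and cold gave few calls. MseI cuts DNA, and a plant with breaks raises repair genes such as BRCA1. BRCA1 was at −1.68 in ExTQ019 against −1.21, −1.04 and −0.51, below all others, with a difference of −0.73 ± 0.26 that was not called. Of 19 tested genes of this list 1 was called higher, AGO2, by 1.17 ± 0.21, and 1 lower, the cell cycle inhibitor gene SMR7, which fell by 1.35 ± 0.36. These counts stand against 4.85% and 3.23% of all genes. The list's median of 0.25 was −0.11 with normexp. The call of SMR7 was lost without ExTQ002, ExTQ013, ExTQ005, ExTQ016 or ExTQ018, at −1.40 to −1.28, and within the slide, at −1.4. With normexp SMR7 and AGO2 were not called, at −1.34 and 0.99. None of 16 tested cell division genes was called, and of 11 tested cold and abscisic acid genes 1 was called, the dehydrin gene LTI30, which fell by 1.55 ± 0.30. None of 22 tested genes of oxidative stress was called, with a median difference of 1.18 (1.44 within the slide) and ExTQ019 above all others in 13.

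Outside the lists the largest differences among genes above background on all 8 arrays included genes with wide and with narrow spreads among the other strains. The cell wall invertase gene cwINV6 was at 1.73 in ExTQ019 against −7.15, −5.25 and −2.95 and differed by 6.56 ± 1.49. RLP43, a receptor-like protein gene, was at 0.19 against −7.23, −5.70 and −3.91 and differed by 5.65 ± 1.13. AT4G27654, with no other name in the reference, was at −0.02 against −6.05, −5.78 and −5.07 and differed by 5.67 ± 0.37. The next, AT1G65500, AT5G09290 and AT3G09960, differed by 5.74 ± 1.15, 5.73 ± 1.5 and 5.33 ± 1.14, and the call of AT5G09290 was lost without ExTQ015, ExTQ005 or ExTQ018, at 5.71 to 5.85, and with quantile normalization, at 5.79. With normexp RLP43, AT4G27654 and AT3G09960 lost their calls, at 4.04, 3.78 and 3.73.

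Among the 10 lowest called differences were genes of hormone responses and BT2. BEE3, a transcription factor gene induced by the growth hormone brassinosteroid, was at −5.37 in ExTQ019 against −0.52, 0.17 and 0.52 and fell by 5.40 ± 0.36. GASA1, a gene regulated by gibberellin, was at −0.08 against 3.25, 4.13 and 6.11 and fell by 4.63 ± 1.06. AT5G44260, a zinc finger protein gene, was at −4.84 against −0.36, 0.32 and 0.91 and fell by 5.17 ± 0.38. BT2, a sugar-repressed gene with BTB and TAZ domains, was at 1.42 against 5.41, 6.14 and 6.42 and fell by 4.57 ± 0.40. The groups did not overlap in any of them. AT1G19530 fell by 4.90 ± 0.75 and the lectin gene JAL22 by 4.54 ± 1.27, and the call of JAL22 was lost without any strain other than ExTQ002, at −4.78 to −4.31, with normexp, at −3.48, with the deposited values, at −2.99, and with slide as a block, at −3.6. GASA1 lost its call with normexp, at −4.5.

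Some called genes were above background in ExTQ019 alone, and others were not above it there. No other strain was above background in 83 of the genes called higher, and ExTQ019 was not in 71 of those called lower. Their folds are bounds, taken on the dim side from each array's dimmest probe that was still well above background, or from the gene's own signal where that was brighter. AT1G19210 was at least 112-fold higher in ExTQ019 and AT1G21740 at least 98.6-fold. RSH4, named for root hairs, was at least 37.2-fold higher, AT3G60470 at least 31.8-fold and the WRKY factor gene WRKY59 at least 27.2-fold. In the other direction AT3G42800 was at least 36.9-fold lower, AT5G28237 at least 34.1-fold and AT2G18480 at least 29.8-fold. AT4G32510 was at −8.32 and not above background in ExTQ019, against −4.65, −3.30 and −2.33 in the others. The calls of all 5 genes on the higher side were lost with normexp, at differences of 1.72 to 3.94. On the lower side AT3G42800, AT5G28237 and AT4G32510 lost theirs with normexp too, at −2.45, −2.9 and −2.37. AT5G28237 also lost its call with the deposited values, at −2.19, and without ExTQ013 or ExTQ005, at −5.32 and −5.21.

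Among called genes ExTQ002 was the strain most often next to ExTQ019. Where ExTQ019 lies above or below all others, the nearest strain is simply the most extreme of the 7 on that side. The share over all tested genes was not taken, so no likeness of the strains is read from these counts. It was the nearest of the 7 in 426 of the 953 genes called higher, or 44.7%, and in 202 of the 635 called lower, or 31.8%. ExTQ016 was nearest in 118 and 156 genes, and ExTQ013 in 117 and 91. In the salicylic acid list the median difference of ExTQ002 from its 7 others was 1.65 and that of ExTQ013 0.99, while the remaining 5 strains lay between −2.12 and −0.70. In the phosphate list ExTQ002 and ExTQ013 stood at 2.5 and 2.38, at the far end from ExTQ019. These values share arrays with those of ExTQ019 and are set side by side only.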

How the data were processed

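RNA of 8 strains, from leaves per the labels, was hybridised to 1-colour Agilent arrays. The values are processed intensity signals, per the file headers. Per the submitters' processing notes, Agilent Feature Extraction 11.0.1.1 and limma were used. The authors' deposited series table holds log2 values whose column medians ran from 7.64 to 7.65, and it served as an alternative. The sources used here do not state its centring.

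Spots flagged as outliers were dropped, spots of a probe averaged, log2 intensities set relative to the array's 75th percentile, and the brightest probe kept per locus. Genes well above background on any of the 8 arrays were tested. Limma 3.58.1 in R 4.3.3 compared ExTQ019 with the 7 other strains, adjusted by Benjamini-Hochberg over all 22381 tested genes, with 1 array per strain. Normexp (offset 50) used the median signal and median background. Other alternatives were quantile normalization, scaling over loci outside the stretches, probe filters, slide as a block, own slide only and leaving out each strain.

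Members and gene lists were chosen with earlier results of these data known. Text names were, per list, the first 3 genes and the 3 called genes with the largest difference, the 10 highest and 10 lowest called differences above background on all 8 arrays, the 5 largest bounds in each direction, and the genes at the borders. Of 566 list entries, 46 lay inside the stretches, 8 were not above background anywhere and 512 were tested. The reference gene table does not hold the names of 24 entries as first written, and these go by another name or by locus. It held 19522 of the tested genes outside. Promoter sequences were not used here. Some single-gene results are not reported here.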

Additional observations from a re-analysis of the deposited data

Results flagged for a closer look

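Among the 7 strains other than ExTQ019, 239 items (208 genes and 31 lists) were searched for a strain whose gap to its nearest neighbour was above Dixon's critical value for 7 samples as a share of the whole range. This singled out 15 items, or 6.3%, and chance alone singles out about 1 in 20.

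Seed storage genes stood apart in ExTQ016. SESA1 was at −0.13 there and between −9.77 and −8.81 in the others, SESA2 at 0.88 against −9.68 to −7.37, and SESA3 at 5.13 against −9.78 to −7.97. The median of the seed markers was 3.10 in ExTQ016 and at most −7.37 elsewhere.

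ExTQ002 was low in flower and division genes. The flower organ genes AP1 and AP3 were at −7.01 and −8.08 there, against at least −1.14 and −2.48 in the others. The mitosis genes CDKB1;1 and SYP111 were at −3.14 and −0.51, against at least −2.26 and 0.79. The median level of the cell division list was −2.08 there and between −1.30 and −0.81 elsewhere.

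The remaining items were single values. SULTR1;1 was at −6.20 in ExTQ005 against at most −8.48 in the others, and CDF2 at −2.17 in ExTQ005 against at most −2.49. EXPA11 was at 1.25 in ExTQ013 against at least 1.58, and the median level of the sulfur list was 1.26 there against at most 0.79. LBD38 was at 2.55 in ExTQ016 against at least 3.29, and AT5MAT at −4.31 in ExTQ015 against at most −6.14. The calls of EXPA11 and LBD38 in ExTQ019 held without the strain that stood apart.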

How the results depend on the processing

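The 953 genes called higher became 297 with normexp and 1596 within the slide of ExTQ019, and were 1286 with slide as a block. The 635 called lower became 264 with normexp, 423 with the deposited series values, 1140 with slide as a block and 1363 within the slide. Leaving out 1 strain gave 710 to 1329 higher and 514 to 896 lower, both high ends without ExTQ002. The other alternatives, which were quantile normalization, scaling over loci outside the stretches, the probe filters, the mean of a gene's probes, eBayes with trend and robust, and adjustment outside the stretches, stayed within 1.5 times of both counts. Of the reported calls 283 higher and 262 lower were made again with normexp, and 728 and 402 with the deposited values. The share of higher among all calls, 60.0%, was 47.8% with scaling outside the stretches and 69.2% with the deposited values.

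Of 3712 values of 208 genes under the alternatives 3379 stayed called in their direction, or stayed uncalled within the spread, 282 lost the call, 39 gained it, and 11 of uncalled genes moved by more than the spread. The sign differed in 45 values of 18 genes, of which 1 value was of a called gene. This was RLP15, at −0.20 with normexp and 2.80 as reported, and the cause was not tested. Among all 953 genes called higher, 55 had the other sign with normexp. Of 139 called genes 60 held in every alternative measured.

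No paired analysis was possible because ExTQ019 has 1 array and the replicate numbers, given in accession order, pair no samples. The promoter comparison was not run. With 1 array, neither the spread of ExTQ019 nor plant-to-plant differences can be separated from the strain.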

Other observations

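Some gene families had medians far from that of all genes, and only some of them are described here. RALFL, CHX and AGP, at medians of −1.42, −1.1 and −1.03, lay between the SAUR and XTH families below. ENODL, TPS and GH, at −0.85, −0.81 and −0.75, also lay lower than IAA, at −0.7. CRK had the highest median, at 2.5. Families were formed from shared gene names after values were seen, 67 had at least 15 tested genes, and no test was made of any of them. SAUR genes, which auxin induces quickly in expanding cells, had 8 of 15 called lower and none higher, against 3.23% of all genes, with a median difference of −2.38 that stayed between −2.52 and −2.03 under the other scalings. SAUR19 was at −3.29 in ExTQ019 against −0.61, 0.22 and 0.99 (lowest, median and highest of the others), a difference of −3.47 ± 0.60. With normexp SAUR24, SAUR27, SAUR28 and SAUR68 lost their calls, at −2.22, −0.98, −1.54 and −3.21. SAUR27 and SAUR28 were not above background in ExTQ019, and with the deposited values lost their calls, at −0.33 and −0.87. SAUR27 also lost its call without ExTQ015, ExTQ003, ExTQ005, ExTQ016 or ExTQ018, and SAUR24 and SAUR68 without ExTQ015. Of 18 auxin-repressor genes of the IAA family 3 were called lower, against 3.23% of all genes. These were IAA5, IAA6 and IAA32, at −2.61 ± 0.34, −3.74 ± 0.49 and −3.84 ± 0.70, and IAA32 lost its call with normexp, at −2.21. IAA28 was called higher at 1.00 ± 0.22, and its call was lost without ExTQ015, ExTQ003, ExTQ005 or ExTQ016, at 0.96 to 0.99, and with normexp and the deposited values, at 0.93 and 0.91. Of 23 XTH genes, which remodel cell walls, 7 were called lower and none higher, against 3.23% and 4.85% of all genes. Their median was −0.95 (−0.59 in the deposited values). ExTQ019 lay below all others in 12 of the 23 and above all in 4. Among these 4 were XTH10 and XTH31, at differences of 3.07 ± 0.91 and 3.02 ± 1.02 that were not called. The expansin family EXPA did not lie low, with 1 of 18 called higher, 1 lower and a median of −0.05 (−0.61 within the slide).

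Receptor-like proteins, surface receptors without a kinase domain, lay on the other side. Of 47 tested RLP genes 12 were called higher and 1 lower, against 4.85% and 3.23% of all genes, with a median difference of 1.64 (2.36 within the slide, 0.94 with normexp and 1.1 in the deposited values). RLP47 was at 0.21 against −3.35, −2.93 and −2.22 and differed by 3.04 ± 0.40. RLP27, RLP32 and RLP42 differed by 1.84 ± 0.22, 2.12 ± 0.46 and 2.6 ± 0.45, and RLP45 fell by 1.16 ± 0.21. Members of each family are alike in sequence, so probes may share signal. RLP2, RLP21, RLP34, RLP37 and RLP39 were also called higher, and each call was lost when single strains were left out and with normexp.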
